A study of Mus musculus with 18 samples.

Results

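The enzymes that make nucleotides and the one-carbon units that feed them were followed in mouse B cells before and after stimulation, as 39 genes chosen by name. Of these names, 38 had a row in the 129 count tables, among 40327 rows, and 36 had one in the Cast count tables, among 39147 rows. No row carried the name Tyms in either set of tables, and none in the Cast tables carried Cmpk1 or Pfas, so these are not analysed further there. Hprt, Prps1, Prps2 and Ctps2 lie on the X chromosome and the other 34 found members on autosomes. The genes were grouped by role into pyrimidine synthesis and CTP (6 genes), deoxynucleotides (8), the purine ring (6), the AMP and GMP branches (4), PRPP and purine salvage (5), nucleotide kinases (5) and one-carbon metabolism (5).

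All 6 samples analysed were CD23+ B cells from the spleen of female F1 129S1/Cast mice that carried 1 mutant Xist allele (Xist+/-). CD23 marks mature B cells. Xist is the non-coding RNA that coats and silences 1 X chromosome in female cells, and in these mice the inactive X was in every cell the Cast one, per the labels. Controls and stimulated cells share this genotype. The naive group (3 samples) had no treatment, and the stimulated group (3 samples) was cultured in vitro with 1 µM CpG for 24 h. CpG here means DNA with unmethylated CG letters, which Toll-like receptor 9 senses. The age of the mice and whether replicates came from separate animals are not given in the sources used here, so p-values measure the spread between these samples, which may be technical. A further 12 samples of the series, from an F1 B6/Cast cross, are not analysed here.

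Proliferating cells build purines and pyrimidines from amino acids, carbon dioxide and folate-bound one-carbon units, on a ribose phosphate supplied as PRPP (phosphoribosyl pyrophosphate). Resting lymphocytes rely more on salvage of ready-made bases and nucleosides, and activated lymphocytes are known for a strong dependence on new synthesis, which is why inhibitors of IMP dehydrogenase and dihydroorotate dehydrogenase are used as immunosuppressants. Ribonucleotide reductase turns the ribonucleotides into the deoxynucleotides that DNA replication uses.

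Each sample had counts of reads for its 129 and for its Cast genes, with gene totals of 1987266 to 2928236 reads (129) and 2465073 to 3321753 reads (Cast). Levels are given as CPM, reads scaled to the same library total and not corrected for gene length. B cell markers were present throughout, with a summed level of 12059 to 16035 CPM in naive and 4080 to 5643 CPM in stimulated samples (129 tables), and 9 of the 10 fell. Markers of cycling cells summed to between 364 and 698 CPM in naive and between 7979 and 11754 CPM in stimulated samples, and 7 of the 8 tested rose. Markers of red pulp macrophages and monocytes summed to 8118, 3917 and 4821 CPM in the naive samples and to between 31.2 and 37.0 CPM in the stimulated ones, and all 15 tested fell in both sets of tables. Summed T cell, neutrophil, erythroid and dendritic cell markers reached at most 109 CPM in any 129 sample, with the neutrophil genes Elane and Camp at 0 in all 6, while plasma cell markers lay between 187 and 342 CPM in both groups. Of the T cell, erythroid and dendritic cell markers tested, 1 of 2, 2 of 2 and 2 of 3 fell. No neutrophil marker had enough reads to be tested, and 2 of the 3 plasma cell markers tested rose and 1 fell. In bulk RNA, fewer cells of a type and less RNA per cell cannot be told apart, and the part that these changes in other cells' markers had in the results below was not tested.

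Nearly all members were higher after CpG on both alleles. In the 129 tables, 34 of the 38 members rose and 2 fell (edgeR's quasi-likelihood test, Benjamini-Hochberg adjusted p under 0.05 over all 10581 genes tested), against 28.2% of all tested genes that rose and 27.0% that fell, or 55.2% called in either direction. In the Cast tables, 35 of the 36 members had enough reads to be tested, 30 of which rose and 2 fell, against 30.7% of all 10365 tested genes that rose and 31.5% that fell, or 62.2% called. Members had a median log2 fold change of 2.04 on 129 and 2.05 on Cast, while the median over all tested genes was −0.01 and −0.04. More than 2-fold rises made up 30 of the 38 members tested for 129, where 19.1% of all tested genes rose that far, and 28 of the 35 tested for Cast, where 20.1% did. The 3 naive and 3 stimulated samples did not overlap for 36 of 38 members in the 129 tables (64.8% of all tested genes) and 33 of 35 in the Cast tables (68.5% of all tested genes). Blocking on replicate number, 36 members were called on 129 (65.1% of all tested genes) and 31 on Cast (66.3%).

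**Figure D1:**
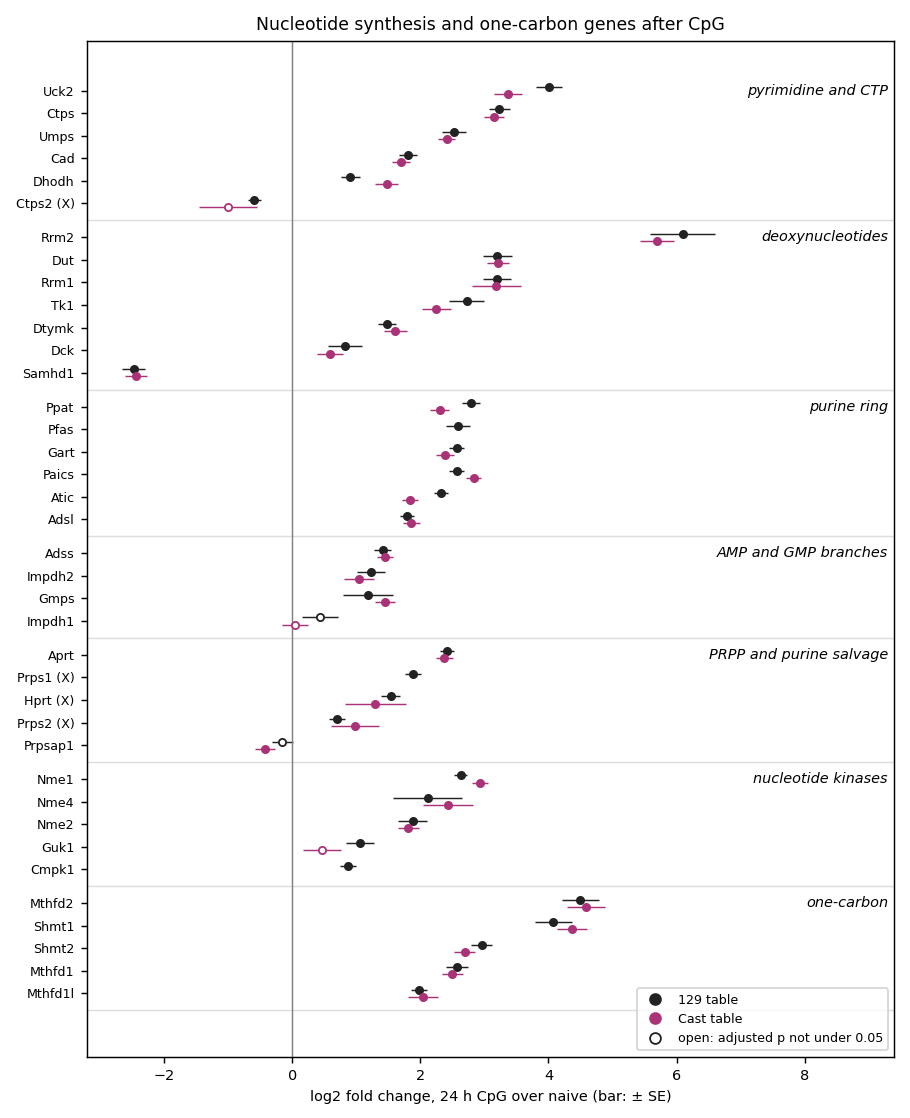
Log2 fold change (24 h CpG over naive, horizontal axis) of each member in the 129 tables (black) and the Cast tables (magenta), grouped by role. Bars give ± 1 standard error, derived from edgeR's log2 fold change and F statistic. Open points mark members whose adjusted p was not under 0.05. Rrm2 stands at the right with 6.10 (129) and Samhd1 at the left with −2.48 (129).

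**Figure D2:**
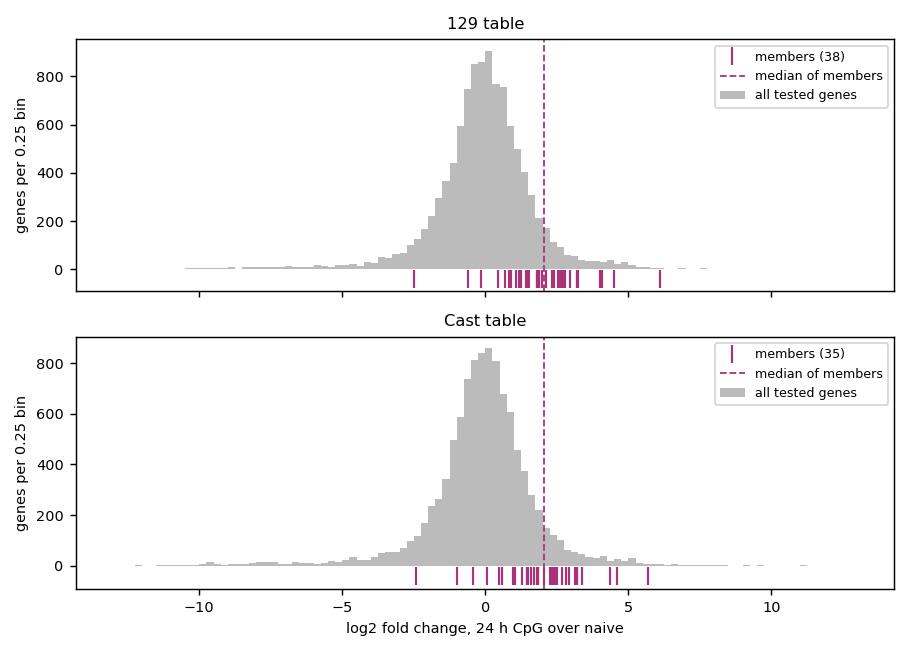
Number of tested genes per bin of log2 fold change (24 h CpG over naive) in the 129 tables (top) and the Cast tables (bottom), in grey, with a magenta tick for each member tested (38 and 35) and a dashed line at the members' median. The members' medians of 2.04 and 2.05 lie to the right of the peak of all genes, whose medians are −0.01 and −0.04.

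The 2 tables seldom gave a member different calls, and no member rose in one and fell in the other. A total of 30 members rose in both, and Samhd1 fell in both. Cmpk1 and Pfas rose in the 129 tables and had no Cast row, Prps1 rose in the 129 tables and had too few Cast reads to be tested, and Guk1 rose in the 129 tables alone. Ctps2 fell in the 129 tables alone and Prpsap1 in the Cast tables alone, and Impdh1 was called in neither. Differences between the calls of the tables were tested separately, as changes of the ratio of both alleles, and are given further on. Both alleles of a sample come from 1 library, so the tables are not independent replicates.

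Promoter sequences of 37 of the 39 members were taken from RefSeq (assembly GRCm38.p6, 250 bases before to 50 bases after the start site), because the members moved together. Dhodh and Pfas had no entry. Letters searched on both strands were the E-box CACGTG, known as a binding motif of Myc and related factors, and 3 E2F-type motifs, named after the factors of the G1 to S transition. These were TTCGCGC (held by Atic and Ctps), TTGGCGC (held by Adss, Dtymk, Impdh2 and Shmt1) and TTCCCGC (held by Mthfd1, Ppat, Prps1, Prps2 and Rrm1). No match in a member's window overlapped another. CACGTG occurred in a promoter of 6 of the 37 members (Atic, Dtymk, Impdh2, Nme1, Paics and Tyms) and in 8.09% of all 27025 genes with a window. At least 1 E2F-type motif occurred in 11 of the 37 and in 9.2% of all genes with a window. The other 23 members with a window held none of the 4 motifs in these bases. The windows of the 4 members with a match and the highest 129 fold change are printed here, each on its gene's strand from 5′ to 3′, with the matches in capitals. Shmt1 lies at chr11:60811216-60811515 on the minus strand, Ctps at chr4:120569410-120569709 on the minus strand, Rrm1 at chr7:102441445-102441744 on the plus strand and Ppat at chr5:76951529-76951828 on the minus strand.
Shmt1: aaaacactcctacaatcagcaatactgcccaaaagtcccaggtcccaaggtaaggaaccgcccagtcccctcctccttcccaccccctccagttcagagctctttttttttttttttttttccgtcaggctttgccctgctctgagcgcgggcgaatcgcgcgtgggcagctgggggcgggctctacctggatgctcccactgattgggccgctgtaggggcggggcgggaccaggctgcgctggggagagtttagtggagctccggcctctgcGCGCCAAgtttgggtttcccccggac
Ctps: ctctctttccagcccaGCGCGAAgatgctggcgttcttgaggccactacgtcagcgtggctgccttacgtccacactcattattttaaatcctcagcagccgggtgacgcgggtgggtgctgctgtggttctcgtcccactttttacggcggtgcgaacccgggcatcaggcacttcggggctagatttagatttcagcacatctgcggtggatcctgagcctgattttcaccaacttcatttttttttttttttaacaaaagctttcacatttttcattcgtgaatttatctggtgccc
Rrm1: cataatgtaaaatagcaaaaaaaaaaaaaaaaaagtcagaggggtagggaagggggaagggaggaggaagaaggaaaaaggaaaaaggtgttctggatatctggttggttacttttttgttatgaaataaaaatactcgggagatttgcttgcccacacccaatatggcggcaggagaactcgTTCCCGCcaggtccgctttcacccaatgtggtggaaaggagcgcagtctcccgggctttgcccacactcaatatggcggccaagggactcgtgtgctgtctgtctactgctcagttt
Ppat: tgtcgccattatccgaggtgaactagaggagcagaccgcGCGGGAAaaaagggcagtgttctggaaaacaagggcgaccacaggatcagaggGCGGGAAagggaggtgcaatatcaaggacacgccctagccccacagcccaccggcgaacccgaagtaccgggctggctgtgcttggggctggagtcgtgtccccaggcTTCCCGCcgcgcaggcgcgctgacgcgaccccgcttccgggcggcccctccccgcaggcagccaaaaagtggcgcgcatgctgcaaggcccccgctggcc
The matches begin 24 bases after the start site in Shmt1 and 234 before it in Ctps, both on the opposite strand, and 67 bases before it in Rrm1. Ppat held TTCCCGC 3 times, from 211, 158 and 50 bases before its start, the first 2 on the opposite strand. Paics starts 276 bases away from Ppat on the other strand, with each gene reading toward the other's start, and its window, which shares no base with that of Ppat, held CACGTG. A match describes letters only, and no binding was measured in these samples.

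Every measured enzyme of the purine ring rose. These enzymes build IMP stepwise on PRPP, and 6 of 6 rose in the 129 tables and 5 of 5 in the Cast tables, with medians of 2.57 and 2.31 on the log2 scale. Ppat, the amidotransferase that commits PRPP to purine synthesis, had 45.2, 45.3 and 46.1 CPM in the naive and 347, 264 and 331 CPM in the stimulated samples of the 129 tables. The stimulated samples all lay far above the closely grouped naive ones, with a log2 fold change of 2.78 (SE 0.14, adjusted p = 1.53e-05), and Ppat rose by 2.31 (SE 0.15, adjusted p = 2.29e-06) on Cast. Gart, which carries 3 activities and takes up the first one-carbon unit, rose by 2.57 and 2.39 on the log2 scale in the 129 and Cast tables. Pfas, which adds the next nitrogen, rose by 2.59 (SE 0.19, adjusted p = 3.31e-05) in the 129 tables. Paics, a later enzyme in the chain, rose by 2.57 (129) and 2.83 (Cast).

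Adsl, which releases fumarate both in the ring pathway and in the making of AMP, had the smallest rise of the purine ring genes in the 129 tables. Its level went from 88.6, 94.3 and 84.7 CPM in naive samples to 297, 315 and 317 CPM in stimulated ones. This was a log2 fold change of 1.79 (SE 0.10, adjusted p = 1.83e-05), with 1.86 (SE 0.13) on Cast. Atic, which adds the second one-carbon unit and closes the ring, rose from a mean of 267 ± 11.9 to 1333 ± 54.6 CPM (SD, n = 3 each) on 129 and from 261 ± 24.7 to 929 ± 15.2 CPM on Cast. The log2 fold changes of Atic were 2.32 (SE 0.11) and 1.83 (SE 0.13).

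The branches from IMP to AMP and GMP rose less, with medians of 1.21 (129) and 1.24 (Cast) on the log2 scale, and 3 of 4 members rose in each set of tables. No test compared this branch with the others. Adss, which starts the AMP branch, stood at 113, 106 and 99.3 CPM in naive and at 308, 246 and 292 CPM in stimulated samples (129). The groups did not overlap, and the log2 fold change was 1.41 (SE 0.13, adjusted p = 9.03e-05) with 1.44 (SE 0.13) on Cast. The IMP dehydrogenases, which commit IMP to GMP, differed. Impdh2 rose by 1.23 (SE 0.22, adjusted p = 0.00213) on 129 and 1.04 (SE 0.24, adjusted p = 0.00388) on Cast.

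Impdh1 gave 12.5, 11.2 and 13.5 CPM in naive and 12.9, 15.6 and 21.6 CPM in stimulated samples on 129. Its groups overlapped, and its log2 fold change was 0.43 (SE 0.28, adjusted p = 0.230) on 129 and 0.05 (SE 0.20, adjusted p = 0.846) on Cast. Gmps, which turns XMP into GMP, rose by 1.18 (SE 0.39, adjusted p = 0.0349) on 129 and by 1.45 (SE 0.15, adjusted p = 3.57e-05) on Cast. On 129 Gmps had 3.44, 8.31 and 6.52 CPM in naive and 15.5, 15.6 and 10.5 CPM in stimulated samples. That 129 call was lost when naive replicate 1 (adjusted p = 0.0858), naive replicate 3 (0.0740), stimulated replicate 1 (0.0963) or stimulated replicate 2 (0.0962) was left out.

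PRPP synthesis and purine salvage rose in part. On 129, 4 of 5 members rose, with a median of 1.54 on the log2 scale, and on Cast, 3 of 4 tested rose and 1 fell, with a median of 1.14. Aprt, which salvages adenine, had the largest rise, from 65.0, 64.4 and 60.2 CPM in naive to 341, 312 and 358 CPM in stimulated samples (129). Its log2 fold change was 2.41 (SE 0.11, adjusted p = 1.24e-05) on 129 and 2.37 (SE 0.13, adjusted p = 1.25e-06) on Cast. X-linked Hprt, which salvages hypoxanthine and guanine, had 70.1, 54.8 and 77.7 CPM in naive and 189, 204 and 195 CPM in stimulated samples on 129, the active X. Hprt rose by 1.54 (SE 0.15, adjusted p = 1.34e-04) on the log2 scale.

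The PRPP synthetases Prps1 and Prps2, both X-linked, rose to different degrees. Prps1 had 46.5, 45.3 and 42.1 CPM in naive and 163, 180 and 152 CPM in stimulated samples on 129, a log2 fold change of 1.89 (SE 0.13, adjusted p = 2.65e-05). Prps2 had 162, 150 and 174 CPM in naive and 237, 287 and 267 CPM in stimulated samples, a log2 fold change of 0.70 (SE 0.12, adjusted p = 0.00185). The groups of neither gene overlapped. Prpsap1, a synthetase-associated protein thought to restrain the enzyme, had 41.7, 47.8 and 45.1 CPM in naive and 36.7, 45.4 and 38.7 CPM in stimulated samples on 129. These groups overlapped, with a log2 fold change of −0.16 (SE 0.16, adjusted p = 0.441). On Cast, Prpsap1 had 44.5, 43.3 and 39.9 CPM in naive and 33.4, 33.9 and 27.8 CPM in stimulated samples, and fell by 0.43 (SE 0.16, adjusted p = 0.0442) on the log2 scale. The Cast call was kept in 2 of 13 alternatives, and leaving out any 1 sample ended it (adjusted p between 0.0584 and 0.181 for the 6 samples).

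**Figure D3:**
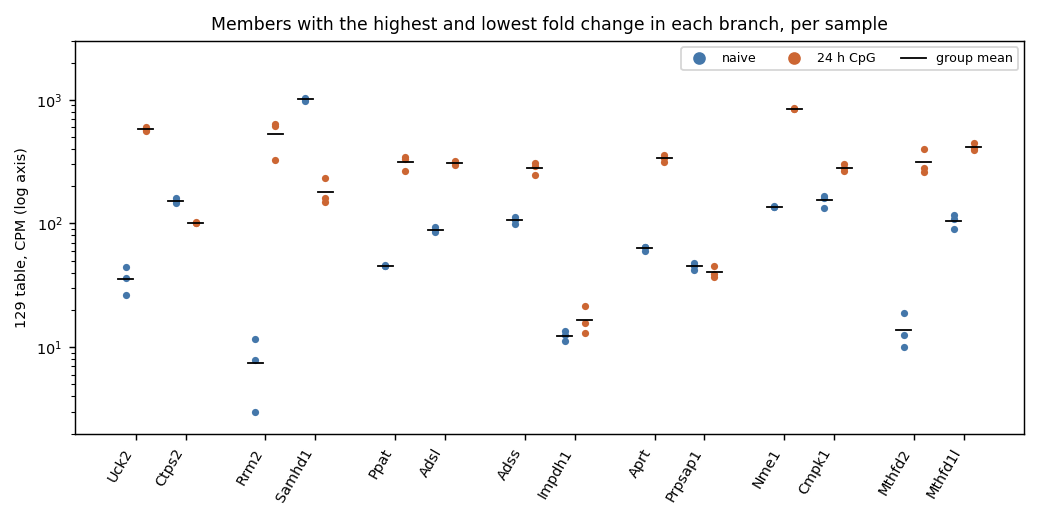
Level in each sample of the 129 tables (CPM, log axis) for the tested members with the highest and the lowest log2 fold change in each role group, with naive samples in blue, 24 h CpG samples in orange and group means as lines. The groups overlap for Impdh1 and Prpsap1 and are apart for the other members shown.

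In pyrimidine synthesis, 5 of 6 members rose in each set of tables, and X-linked Ctps2 fell in the 129 tables. The medians were 2.16 (129) and 2.05 (Cast) on the log2 scale. Cad, the 3-activity enzyme that opens the pathway, rose by 1.80 (SE 0.14) on 129 and 1.70 (SE 0.14) on Cast. Dhodh, the mitochondrial step, rose by 0.90 (SE 0.15, adjusted p = 0.00144) and 1.48 (SE 0.18, adjusted p = 8.52e-05). Umps, which yields UMP, rose by 2.52 (SE 0.19) and 2.41 (SE 0.13).

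Uck2, a kinase that salvages uridine and cytidine, had 44.7, 26.2 and 36.1 CPM in naive and 567, 597 and 563 CPM in stimulated samples on 129. Every stimulated sample was far above every naive one, with a log2 fold change of 4.01 (SE 0.20, adjusted p = 1.53e-05). On Cast it had 67.8, 36.1 and 57.1 CPM in naive and 572, 572 and 522 CPM in stimulated samples, a log2 fold change of 3.37 (SE 0.22, adjusted p = 2.55e-06).

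The CTP synthases, which aminate UTP to CTP, moved in opposite directions. Ctps had 36.1, 28.3 and 36.1 CPM in naive and 339, 265 and 342 CPM in stimulated samples on 129, and rose by 3.23 (SE 0.17, adjusted p = 1.65e-05), with 3.15 (SE 0.15, adjusted p = 8.69e-07) on Cast. Ctps2 had 160, 153 and 145 CPM in naive and 103, 101 and 100.2 CPM in stimulated samples on 129, and fell by 0.59 (SE 0.11, adjusted p = 0.00232). The smallest naive value of Ctps2 was above its largest stimulated one. On Cast, its inactive allele, Ctps2 had few reads and a log2 fold change of −1.0 (SE 0.46, adjusted p = 0.0828). It passed the threshold there without stimulated replicate 1 (−1.47, adjusted p = 0.0412).

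Deoxynucleotide genes rose in 6 of 7 members in both sets of tables, and Samhd1 fell in both. The medians were 2.72 (129) and 2.25 (Cast). Rrm2, the radical-bearing subunit of ribonucleotide reductase whose level follows S phase, had 11.6, 7.89 and 3.01 CPM in naive and 638, 611 and 327 CPM in stimulated samples on 129. The log2 fold change of 6.10 (SE 0.51, adjusted p = 1.61e-04) was the largest of all members in that table, and the same held on Cast with 5.70 (SE 0.26, adjusted p = 7.52e-07). On Cast Rrm2 had 11.7, 11.2 and 6.01 CPM in naive and 453, 439 and 628 CPM in stimulated samples. Stimulated replicate 3 was thus the lowest of its group on 129 and the highest on Cast. Rrm1, the large subunit, rose by 3.19 (SE 0.22) on 129 and 3.19 (SE 0.38) on Cast.

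Dut, which removes dUTP and so supplies dUMP for thymidylate synthesis, rose by 3.20 (SE 0.23) on 129 and 3.21 (SE 0.17) on Cast. Tk1, the cytosolic thymidine kinase of S phase, rose by 2.72 (SE 0.28, adjusted p = 1.92e-04) and 2.25 (SE 0.23, adjusted p = 3.15e-05). Dtymk, the next kinase toward dTTP, rose by 1.48 (SE 0.14) and 1.61 (SE 0.18).

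Dck, which salvages deoxycytidine and other deoxynucleosides, had the smallest rise of the deoxynucleotide genes that rose. Its levels on 129 were 177, 94.7 and 189 CPM in naive and 295, 229 and 292 CPM in stimulated samples, with naive replicate 2 low. Dck rose by 0.83 (SE 0.26, adjusted p = 0.0325) on 129 and 0.59 (SE 0.20, adjusted p = 0.0290) on Cast. Both calls were lost without stimulated replicate 1 (adjusted p = 0.0849 on 129 and 0.0634 on Cast) and without stimulated replicate 3 (0.0842 and 0.0615).

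Samhd1, which breaks down deoxynucleoside triphosphates, went the other way. It had 1005, 978 and 1034 CPM in naive and 161, 232 and 149 CPM in stimulated samples on 129, and 1054, 916 and 988 CPM against 169, 227 and 149 CPM on Cast. Naive samples were thus 5.57 times as high as stimulated ones in the mean of the 129 tables and 5.43 times in the Cast tables. Samhd1 fell by 2.48 (SE 0.18, adjusted p = 3.81e-05) on 129 and by 2.44 (SE 0.17, adjusted p = 3.88e-06) on Cast. Samhd1 is also expressed in macrophages, whose summed markers fell from 8118, 3917 and 4821 CPM in these naive samples to at most 37.0 CPM, and their part in the fall of Samhd1 was not tested. On Cast, the same markers summed to 6767, 3083 and 4410 CPM in the naive samples and to at most 30.9 CPM in the stimulated ones.

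Kinases that turn nucleotides into triphosphates rose in 5 of 5 members on 129 and 3 of 4 on Cast, with medians of 1.88 and 2.12 on the log2 scale. Nme1, a nucleoside diphosphate kinase, had 136, 137 and 136 CPM in naive and 845, 855 and 840 CPM in stimulated samples on 129, with little spread in either group. Its log2 fold change was 2.63 (SE 0.10, adjusted p = 1.10e-05) on 129 and 2.93 (SE 0.13, adjusted p = 6.55e-07) on Cast. Nme2, its neighbour and near-identical paralog, rose by 1.88 (SE 0.23) and 1.81 (SE 0.17), and reads between these copies could be split by the counting, so their separate values are uncertain. Nme4, the mitochondrial form, stayed below 20 CPM and rose by 2.11 (SE 0.53, adjusted p = 0.0116) and 2.43 (SE 0.39, adjusted p = 4.76e-04).

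Cmpk1, which phosphorylates UMP and CMP, had the smallest rise of the kinases on 129, from 160, 134 and 168 CPM to 280, 263 and 304 CPM. The groups did not overlap, with a log2 fold change of 0.87 (SE 0.13, adjusted p = 8.28e-04). Guk1, the GMP kinase, rose on 129 by 1.06 (SE 0.22, adjusted p = 0.00527). On Cast it had 18.5, 15.2 and 29.6 CPM in naive and 23.0, 37.6 and 26.3 CPM in stimulated samples, with overlapping groups and a log2 fold change of 0.47 (SE 0.29, adjusted p = 0.190). Leaving out 1 sample at a time, the Cast value of Guk1 lay between 0.26 (without stimulated replicate 2, adjusted p = 0.482) and 0.80 (without naive replicate 3, adjusted p = 0.0387).

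One-carbon genes rose in 5 of 5 members on both alleles, with the highest medians of the role groups, 2.96 on 129 and 2.69 on Cast. These groups were not compared by a test. Mthfd2, the mitochondrial dehydrogenase and cyclohydrolase that is low in most resting adult cells, had 18.9, 9.97 and 12.5 CPM in naive and 279, 401 and 260 CPM in stimulated samples on 129. Every stimulated sample stood above all naive ones, with a log2 fold change of 4.50 (SE 0.29, adjusted p = 2.93e-05) on 129 and 4.59 (SE 0.30, adjusted p = 2.69e-06) on Cast. Shmt1, the cytosolic enzyme that takes a one-carbon unit from serine, went from 8.61, 12.0 and 5.01 CPM to 169, 129 and 143 CPM. Its log2 fold change was 4.08 (SE 0.29) on 129 and 4.37 (SE 0.23) on Cast.

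Shmt2, the mitochondrial counterpart of Shmt1, rose by 2.96 (SE 0.17) and 2.69 (SE 0.16). Mthfd1, the cytosolic 3-activity enzyme that delivers formyl folate to the purine ring, rose by 2.58 (SE 0.17) and 2.50 (SE 0.16). Mthfd1l, which releases formate from mitochondria, had the smallest rise of these genes, from 109, 91.0 and 116 CPM to 411, 393 and 443 CPM on 129. Its log2 fold change was 1.98 (SE 0.13, adjusted p = 2.57e-05) on 129 and 2.05 (SE 0.24, adjusted p = 7.12e-05) on Cast.

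The balance of reads within pairs of related genes was compared between the groups. Reads are not corrected for gene length, so the difference of a ratio between groups is compared and not its level. For 6 pairs, in 10 comparisons over both sets of tables, the ratio was set against a two-sided exact permutation test of the log2 ratio (0.5 added to each count), whose smallest p with 3 against 3 samples is 0.1, so that no comparison could pass 0.05. Ctps over Ctps2 differed most, at 0.219 in naive and 3.09 in stimulated samples on 129, a 14.1-fold difference of the ratio (log2 difference 3.81, exact permutation p = 0.1, adjusted p = 0.111). The log2 ratios were −2.14, −2.43 and −2.00 in naive and 1.72, 1.39 and 1.77 in stimulated samples, well apart and tight within each group.

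Prps1 over Prps2 was 0.276 in naive and 0.627 in stimulated samples on 129. Impdh2 over Impdh1 had a log2 difference, stimulated minus naive, of 0.83 on 129 and 1.00 on Cast, and Nme1 over Nme2 of 0.74 and 1.11. The ratio of Nme1 over Nme2 is uncertain, since reads could be split between these near-identical copies by the counting. Shmt2 over Shmt1 was lower in stimulated samples, with a log2 difference of −1.21 on 129 and −1.73 on Cast. The groups did not overlap in any of these comparisons, each with the smallest exact permutation p of 0.1 (adjusted p = 0.111 over 10). Mthfd1 over Mthfd1l differed by 0.62 on 129 without overlap (exact permutation p = 0.1, adjusted p = 0.111) and by 0.47 on Cast with overlap (exact permutation p = 0.3, adjusted p = 0.3).

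**Figure D4:**
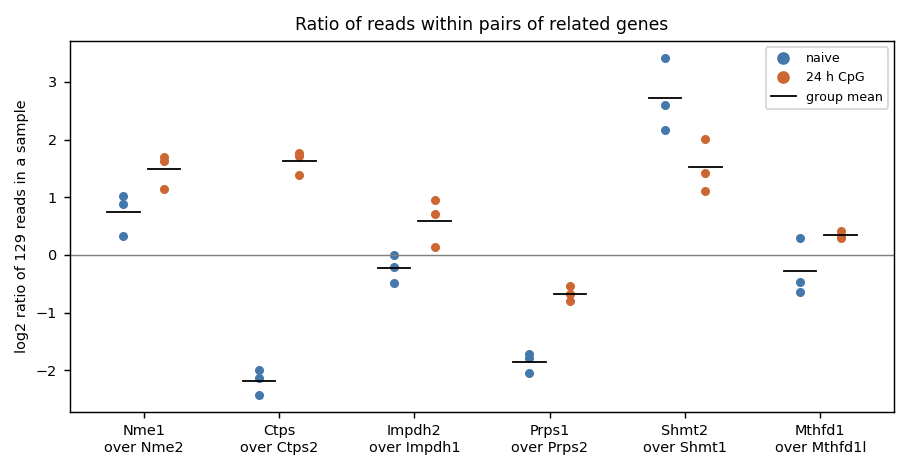
Log2 ratio of reads within 6 pairs of related genes in each sample of the 129 tables (vertical axis), with naive samples in blue, 24 h CpG samples in orange and group means as lines. Ctps over Ctps2 has a mean of −2.19 in naive and 1.63 in 24 h CpG samples.

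Other genes of these pathways were taken from 2 further lists. Folate and serine supply held 21 genes, of which 13 had enough reads in each set of tables. On 129, 8 rose and 1 fell, beside 28.2% and 27.0% of all tested genes, and on Cast, 11 rose and 1 fell, beside 30.7% and 31.5%. The medians were 1.89 and 1.99 on the log2 scale. Psat1, a serine synthesis enzyme, rose by 4.26 (SE 0.19, adjusted p = 1.21e-05) on 129 and 3.51 (SE 0.20) on Cast. Slc25a32, a mitochondrial folate carrier, rose by 2.49 (SE 0.31) and 1.92 (SE 0.34). Mat2b, a regulatory subunit in methionine adenosylation, fell by 0.51 (SE 0.15, adjusted p = 0.0204) on 129 and by 0.59 (SE 0.15, adjusted p = 0.00609) on Cast. The 129 call of Mat2b was lost when naive replicate 2 or 3 or stimulated replicate 2 or 3 was left out (adjusted p between 0.0545 and 0.0666).

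The list of other kinases, salvage and breakdown enzymes held 39 genes. On 129, 27 were tested, of which 10 rose and 9 fell, beside 28.2% and 27.0% of all tested genes. On Cast, 28 were tested, of which 11 rose and 11 fell, beside 30.7% and 31.5%. These shares lie near those of all genes. The medians of this list were 0.19 and 0.05 on the log2 scale. Dctpp1, which clears aberrant dCTP-like nucleotides, rose by 3.26 (129) and 3.25 (Cast), Adk, the adenosine kinase, by 3.02 and 2.99, and Itpa, which clears inosine triphosphate, by 2.13 and 1.92. Tk2, the mitochondrial thymidine kinase, had 213, 230 and 203 CPM in naive and 22.3, 33.3 and 31.1 CPM in stimulated samples on 129. It fell by 2.89 (SE 0.18, adjusted p = 1.98e-05) on 129 and by 2.32 (SE 0.17, adjusted p = 4.44e-06) on Cast, while its cytosolic counterpart Tk1 rose. Rrm2b and Dguok, which serve deoxynucleotide supply outside S phase and in mitochondria, were chosen after their values were seen. Rrm2b fell by 1.17 (SE 0.30, adjusted p = 0.0126) on 129 and by 0.87 (SE 0.17, adjusted p = 0.00161) on Cast. Dguok fell by 1.07 (SE 0.35, adjusted p = 0.0354) on 129 and by 1.52 (SE 0.21, adjusted p = 1.72e-04) on Cast. The 129 call of Dguok was lost without naive replicate 2 (−0.66, adjusted p = 0.127), stimulated replicate 1 (−0.87, 0.107) or stimulated replicate 3 (−1.05, 0.0896).

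Whether the 2 alleles of a member answered CpG differently was tested through the Cast-to-129 ratio of reads, over 10364 genes. Uck2 was the 1 member of 36 tested that passed, against 0.917% of all genes tested, or 0.482% toward Cast and 0.434% toward 129. Cast made up 63.4%, 61.4% and 64.9% of its reads in naive and 53.5%, 52.4% and 52.2% in stimulated samples, where a mean of 52.7% ± 0.793 (SD, n = 3) and 52.9% ± 0.812 of all autosomal reads were Cast. The 95% Wilson intervals, which cover counting error only, spanned 53.7% to 71.1% over the naive and 50.5% to 55.2% over the stimulated samples. The ratio of Uck2 moved toward 129 by −0.62 on the log2 scale (SE 0.09, adjusted p = 0.0360). This call was lost when any 1 sample was left out (adjusted p between 0.0786 and 0.153), with allele-wise scaling (0.0509) and with DESeq2 (0.124), at values of −0.57 to −0.68.

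With the replicate number as a block, 6 members passed, against 7.52% of all tested genes, or 3.83% toward Cast and 3.69% toward 129. Atic (−0.48, adjusted p = 5.30e-05), Ppat (−0.47, adjusted p = 0.0254), Tk1 (−0.49, adjusted p = 0.0346) and Uck2 (adjusted p = 6.81e-04) moved toward 129, and Dhodh (0.58, adjusted p = 0.0408) and Nme1 (0.30, adjusted p = 0.0494) toward Cast. Reads of Nme1 could be split with Nme2 by the counting, so the value of Nme1 is uncertain here too. Without the block, 6 of the 36 members tested had an unadjusted p under 0.05. The share of all genes at that unadjusted threshold is not given here, so nothing about the members is read from this count.

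Gmps and Tk1, singled out after their values were seen, had mostly Cast reads in all 6 samples. The Cast share of Gmps reads was 86.7% ± 6.07 in naive and 88.9% ± 2.35 in stimulated samples, and that of Tk1 76.6% ± 4.36 and 70.8% ± 3.29 (SD, n = 3 each). Rrm1, singled out after its values were seen, differed by replicate number. In naive samples it had 46, 122 and 83 Cast reads beside 62, 38 and 43 reads of 129. In stimulated samples it had 553, 1323 and 1023 Cast reads beside 534, 628 and 490 reads of 129, so replicate 1 held the lowest Cast share in both groups. Rrm1 was not alone in this. The Cast share of Mthfd1l was also lowest in replicate 1, at 32.1% in naive and 33.7% in stimulated samples. That of Rrm2 was highest in replicate 3, at 70.0% in naive samples, where its reads were few, and 69.4% in stimulated ones.

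On the inactive X, the 4 X-linked members gave few reads before and after CpG. Hprt had 6, 8 and 7 Cast reads beside 163, 132 and 155 129 reads in naive samples, and 12, 34 and 20 beside 526, 575 and 560 in stimulated ones. Cast made up 4.53% ± 1.10 of Hprt reads in naive and 3.75% ± 1.70 in stimulated samples (SD, n = 3 each), a difference of −0.775 points with overlapping groups (two-sided exact permutation p = 0.4, adjusted p = 0.5 over 4 genes). Single samples of Hprt ran from 2.23% (95% Wilson interval 1.28% to 3.86%) to 5.71% (2.92% to 10.9%). Within same-numbered pairs, the share of Hprt was lower in the stimulated sample in 3 of 3 (exact sign-flip p = 0.25, the smallest that 3 pairs allow). The share was higher in the stimulated sample in 2 of 3 pairs for Prps1 and 1 of 3 for Prps2, and lower in 2 of 3 for Ctps2.

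Prps1 had 0, 0 and 3 Cast reads in naive samples, beside 108, 109 and 84 129 reads, and 6, 17 and 12 in stimulated ones, beside 454, 508 and 436. The counts of 0 allow shares of up to 2.78% and 2.75%, and naive replicate 3 had 3.45% (95% Wilson interval 1.18% to 9.65%). The share of Prps1 was 1.15% ± 1.99 in naive and 2.41% ± 0.995 in stimulated samples, a difference of 1.26 points (exact permutation p = 0.4, adjusted p = 0.5). Prps2 had 3.05% ± 0.857 in naive and 3.73% ± 1.17 in stimulated samples, and Ctps2 3.48% ± 0.148 and 2.60% ± 1.25. Their differences of 0.679 points (exact permutation p = 0.5) and −0.884 points (exact permutation p = 0.4) also stayed within overlapping groups (adjusted p = 0.5 for both).

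In edgeR's test of the ratio none of the 4 passed, with log2 changes of −0.32 for Hprt, 1.15 for Prps1, 0.28 for Prps2 and −0.44 for Ctps2 (adjusted p = 0.942, 0.808, 0.867 and 0.790) and unadjusted p of at least 0.271. In the Cast tables alone, the few reads of Hprt rose by 1.30 (SE 0.48, adjusted p = 0.0389) and those of Prps2 by 0.98 (SE 0.38, adjusted p = 0.0450) on the log2 scale. Hprt lost that call with DESeq2 (0.0548) and without any 1 of naive replicates 1 to 3 or stimulated replicates 2 and 3 (adjusted p between 0.0600 and 0.158), at 0.86 to 1.41. Prps2 lost it with the replicate block (adjusted p = 0.0600), with DESeq2 (0.0721), with no filter (0.0519) and without any 1 sample but stimulated replicate 3 (adjusted p between 0.0591 and 0.145).

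**Figure D5:**
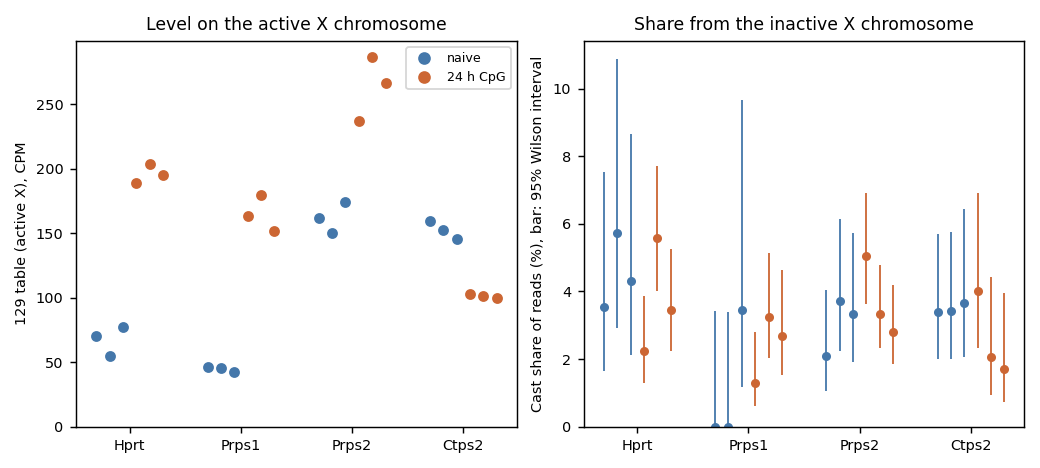
Left, level of the 4 X-linked members on the active 129 X chromosome in each sample (CPM). Right, share of their reads counted for the inactive Cast X chromosome (percent, bars for 95% Wilson intervals), with naive samples in blue and 24 h CpG samples in orange. Levels separate the groups on the left, with Ctps2 lower after CpG, and the shares on the right overlap between groups, between 0 and 5.71%.

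The authors' deposited table of 104 genes held all 4 X-linked members with group means that carry no error, though its header does not name the cross. In the authors' deposited table, the mean RPKM over both alleles, a level per gene length, went from 54.5 to 155 for Hprt, from 43.0 to 69.3 for Prps2, from 23.8 to 15.4 for Ctps2 and from 22.6 to 83.3 for Prps1. Per length, the order in naive cells was thus Hprt, Prps2, Ctps2 and Prps1, and after CpG it was Hprt, Prps1, Prps2 and Ctps2, in the authors' deposited table. The ratio of the inactive to the active X in the authors' deposited table was 0.0396 and 0.0347 for Hprt, 0.0268 and 0.0337 for Prps2, 0.0308 and 0.0239 for Ctps2 and 0.00909 and 0.0219 for Prps1, naive first. All 8 of these ratios were below the medians of 0.0429 and 0.0443 over the 104 genes of the authors' deposited table. Its name calls these escape genes, a term for genes still read from the inactive X. The medians thus do not stand for all X-linked genes.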

How the data were processed

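Total RNA was extracted with TRIzol and sequenced from stranded libraries, per the labels' protocols. STAR, featureCounts, Subread 2.0.0 and mm10 are named, without roles, in the submitters' processing notes. The authors deposited unnormalized read counts per gene in 129 and Cast tables, whose last rows have the format of htseq-count, per the file contents. How a read was given to a strain is not given in the sources used here. The authors' deposited table holds RPKM, SRPM and inactive-to-active ratio means, per the file headers.

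The summary rows stayed out of all totals. The row for no annotated gene held 48.1% to 67.1% (129) and 44.5% to 62.1% (Cast) of aligned reads, and unnamed genes 5.10% to 7.59% and 14.4% to 19.7% of gene counts. Counts of each strain were tested with edgeR 4.0.16 (R 4.3.3, TMM factors, filterByExpr, quasi-likelihood test with robust estimation, Benjamini-Hochberg over all genes tested, threshold 0.05), naive against stimulated, 3 against 3. For ratios, 28374 genes were matched by name and chromosome and 10364 tested, if 3 or more samples held 10 or more reads of the alleles together, with a term for each sample and allele and 1 library size for both alleles. Each SE of a log2 fold change or ratio change is its absolute value divided by the square root of edgeR's F statistic. CPM used the TMM-scaled totals. Permutation and sign-flip tests enumerated every arrangement of the samples, and scipy 1.17.1 gave the Wilson intervals and the adjusted permutation p-values. Alternatives were DESeq2 1.42.0, other scaling, filters and thresholds, a replicate block, summed alleles and each sample left out.

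Same-numbered naive and stimulated samples deviated together from their group means. The correlations were 0.56, 0.443 and 0.608 over 10581 genes in the 129 tables, and 0.228, 0.163 and 0.246 over 10365 in the Cast tables. Mcm6, singled out after its values were seen, had 149, 157 and 9 reads of 129 in naive samples. In stimulated samples it had 2992, 2830 and 149, so replicate 3 was the lowest in both groups. Same-numbered samples thus shared a source of variation, but the labels do not say whether they are pairs from 1 animal. The numbers served as a block in alternatives only. The other fits treat naive and stimulated samples as unpaired and leave this shared variation in their spread. The labels do not say what a number stands for. Tested on simulated data, the 129 fit recovered 89% of 2-fold and 100% of 4-fold changes (10622 genes), the Cast fit 91% and 100% (10371) and the ratio fit 40% and 100% (10400). The simulated counts had the same dispersion for every gene and no effect of the replicate number. Changes were placed in 100 genes per fold, all above a minimum mean of reads, while 55.2% of genes were called on 129 in the data. These rates thus do not describe members with few reads.

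Members, role groups and the lists of folate and serine supply, of other kinases, salvage and breakdown, and of B cell, macrophage, T cell, neutrophil, erythroid, dendritic, plasma and cycling cell markers were chosen with earlier results of these data known. Values per sample are given for X-linked members, the highest and lowest 129 fold change of each role group, and members called in the ratio test, besides others of interest. From each further list, up to 3 rises and 3 falls of the largest 129 fold change with a mean of at least 100 reads are named, and 1 gene that this rule selects is not reported here.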

Additional observations from a re-analysis of the deposited data

Results flagged for a closer look

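The alleles of Uck2 differed in their change with CpG by the test of the ratio itself, but this call depended on the setting and on single samples. Its Cast-to-129 ratio changed by −0.62 on the log2 scale (edgeR, adjusted p = 0.0360), as the Cast share went from 63.2% ± 1.77 in naive to 52.7% ± 0.705 in stimulated samples (SD, n = 3 each), lower in all 3 stimulated samples than in any naive one. The call was kept in 2 of 10 alternatives. It was lost when any 1 sample was left out (edgeR, adjusted p between 0.0786 and 0.153), with allele-wise scaling (0.0509) and with DESeq2 (0.124). Both alleles rose, by 4.01 on 129 and 3.37 on Cast on the log2 scale.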

How the results depend on the processing

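Direction was kept by every member in the 129 and Cast tables under the alternatives run, except Impdh1 on Cast, which had −0.0795 without stimulated replicate 3 (adjusted p = 0.784) and between −0.0795 and 0.160 over all leave-one-out fits. Between 27 and 36 members were called on 129 and between 27 and 34 on Cast over the alternatives that kept all samples, and between 34 and 36 and between 29 and 31 when a sample was left out. A minimum log2 fold change of 1 lowered the genes called to 2525 (129) and 2827 (Cast), with fewer members of small change passing by construction. The other alternatives with all samples gave up to 7105 and 7196 genes, and leave-one-out 5216 to 5477 and 5987 to 6319. With the replicate block, 36 and 31 members were called, and the block changed no call of a member in these tables other than Prps2 on Cast. Of all tested genes, 55.2% (129) and 62.2% (Cast) were called without the block and 65.1% and 66.3% with it. Shares of all genes under the other alternatives are not given here, so the ranges of members are not set against them.

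The test of the Cast-to-129 ratio depended on the setting. It called 779 genes and 6 members with the replicate block, 0 members with TMM factors per allele (63.0% of called genes toward Cast, against 52.6% for edgeR without a block and with 1 library size for both alleles), 0 with DESeq2, and 14 to 26 genes and 0 to 0 members in leave-one-out fits. In these fits the cause was not tested, apart from the fewer samples. Shares of X-linked members and ratios of related genes cannot pass 0.05 with 3 samples a group, nor with same-numbered differences (replicate block, smallest exact p 0.25). The 4 X-linked members had at most 35 Cast reads in a sample, which limits their shares.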
